A study of Sus scrofa with 9 samples.

Results

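Immediate early genes of the EGR and NR4A families, together with IER2, MYC, CYR61 and BTG2, were followed in porcine hearts that had been revived after circulatory death. The members were 10 gene symbols chosen by name (EGR1, EGR2, EGR3, NR4A1, NR4A2, NR4A3, IER2, MYC, CYR61 and BTG2), not by a threshold on their measured values. Of these, 9 had a row among the 25149 genes listed. NR4A1 had no row under its symbol or under its Ensembl identifier, so it is not analysed here, and CYR61 is the older symbol of CCN1.

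Immediate early genes are transcribed within minutes of a stimulus from factors that are already present in the cell, such as SRF with its ternary complex factors and CREB, and most of their mRNAs are short-lived. In the heart they are known to respond to stretch, reoxygenation, calcium and adrenergic signals. EGR1, EGR2 and EGR3 are zinc finger transcription factors that bind related GC-rich sites, and NR4A2 (Nurr1) and NR4A3 (NOR1) are orphan nuclear receptors. MYC is a transcription factor that drives growth and ribosome production, CYR61 is a secreted matrix protein and a YAP target, IER2 is a short nuclear protein, and BTG2 slows proliferation and promotes mRNA deadenylation.

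RNA sequencing was available for 9 hearts of female American Yorkshire pigs aged 4 to 6 months, 3 hearts in each of 3 groups, 1 heart per pig. Every donor went through simulated donation after circulatory death (DCD) with 15 min of warm ischemia, and every heart was afterwards reanimated for 2 h by normothermic machine perfusion (NMP) with porcine blood. The RNA came from apex biopsies frozen when NMP ended. The measurements thus describe tissue after warm reperfusion, and no unperfused heart was analysed here. Hearts of NRP + HOPE 24 h (Group 1, pigs 27, 28 and 30) had 60 min of normothermic regional perfusion (NRP), which restores warm blood flow inside the donor, and then 24 h of hypothermic oxygenated perfusion (HOPE) at 8 °C. Hearts of NRP + SCS 2 h (Group 2, pigs 24, 25 and 29) had the same NRP followed by 2 h of static cold storage (SCS) at 4 °C. Hearts of No NRP + HOPE 2 h (Group 3, pigs 31, 33 and 34) were flushed and removed directly, then kept for 2 h in HOPE at 8 °C. The HOPE perfusate of both groups held packed red blood cells.

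Group 1 against Group 2 addresses storage after NRP, but the method, the length and the temperature of storage changed together. Group 3 against Group 2 addresses NRP, but the storage method and temperature also differed. Group 1 against Group 3 changed both NRP and the duration of storage. The Group 2 hearts enter both of the former comparisons, so these are not independent.

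Levels are in TPM, which divide the reads of a gene by its length and bring each heart to a sum of 1000000, so that levels of different genes can be compared. Read counts were not used here and the depth of each heart is unknown, so the error shown is the spread between hearts. Mitochondrially encoded mRNA took 38.2% (pig 30) to 55.3% (pig 27) of TPM. Cardiomyocyte markers defined the tissue in every heart, with TNNT2 at 7220 to 15218 TPM. The labels name the cells as cardiomyocytes, but RNA of other cells was present in these biopsies. The summed TPM ranged from 216 to 477 for 6 endothelial markers and from 63.7 to 218 for 5 macrophage markers, and the neutrophil genes MPO and CSF3R were listed at 0 in all 9 hearts. The table also lists genes of general use such as CDK4 and ODC1 at 0 throughout, so a 0 is reported only as listed. In bulk tissue, fewer cells of a type and less RNA per cell cannot be told apart.

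All 9 members were detected at 1 TPM or more in every heart after NMP. Averaged over the 9 hearts, 4 members exceeded 100 TPM: CYR61 had the highest level (489 TPM), followed by MYC (250.2 TPM), EGR1 (186 TPM) and BTG2 (172 TPM). IER2 averaged 72.0 TPM and NR4A3 54.3 TPM. EGR2 (12.7 TPM), NR4A2 (9.77 TPM) and EGR3 (4.83 TPM) were the lowest. Among the genes measured, EGR1 thus exceeded EGR2 and EGR3, and NR4A3 exceeded NR4A2. The fold between the highest and the lowest heart was 1.80 for MYC, 2.76 for the median member and 4.13 for CYR61.

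**Figure D1:**
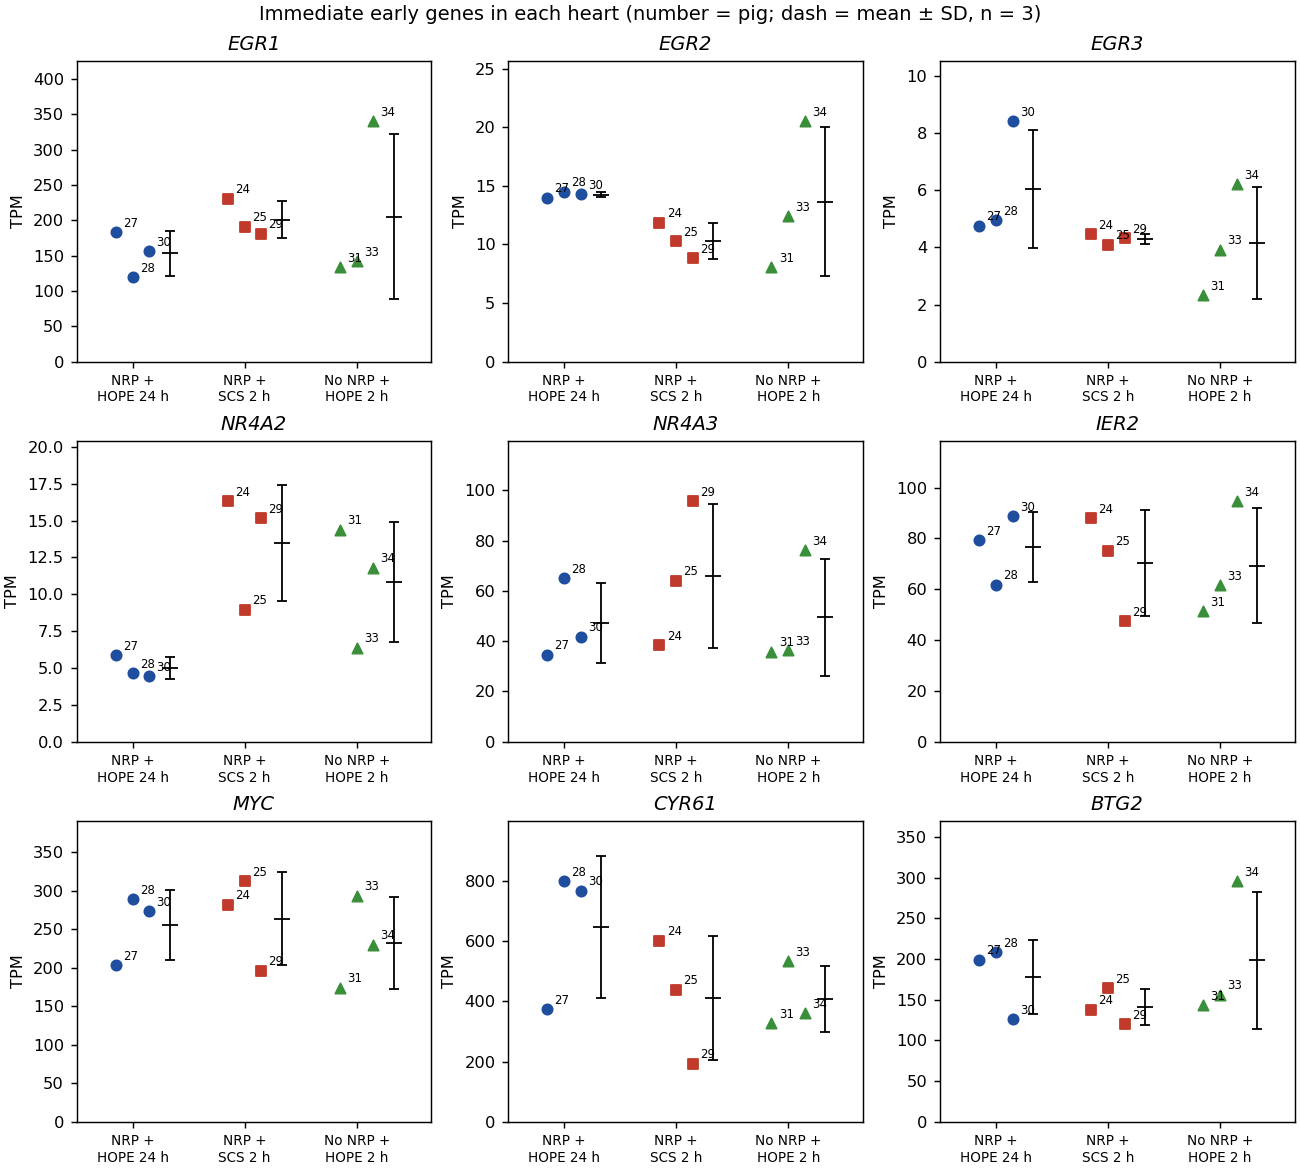
TPM of the 9 members in each heart, 1 panel per gene with its own axis from 0. Symbols are single hearts with the pig number, and the dash with bars is the group mean ± SD (n = 3). NR4A2 in the 3 NRP + HOPE 24 h hearts lies between 4.46 and 5.87 TPM, below all 6 other hearts, whereas the MYC ranges of the groups overlap almost entirely.

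Differences between groups were tested with limma on log2(TPM + 1) in 1 fit across the 11782 genes that had at least 1 TPM in at least 3 hearts. A gene was called when it differed by over 1 on the log2 scale and its p, after Benjamini-Hochberg adjustment, was under 0.05. On this scale the change of a low gene such as EGR3 is understated. No member was called by this fit in any comparison. The calls among all genes were as sparse, at 0.0255% for NRP + HOPE 24 h relative to NRP + SCS 2 h, 0.0509% for No NRP + HOPE 2 h relative to NRP + SCS 2 h, and 0.0509% for NRP + HOPE 24 h relative to No NRP + HOPE 2 h. The authors, who tested read counts, report many more differing genes in both comparisons against the SCS hearts. The absence of calls therefore holds for this fit on TPM, and the reason for the gap was not tested. At an unadjusted p under 0.05, limma gave 1 of 9, 0 of 9 and 1 of 9 members, against 4.97%, 7.22% and 6.01% of all genes. After median-of-ratios scaling the first of these counts was 4 of 9 (NR4A2, EGR2, EGR3 and CYR61), against 1006 of the 11782 genes. In the deposited scaling the single member was NR4A2 both times.

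NR4A2 carried the lowest levels after 24 h of HOPE. Its TPM was 5.87, 4.65 and 4.46 in pigs 27, 28 and 30 (NRP + HOPE 24 h). It was 16.3, 8.95 and 15.2 in pigs 24, 25 and 29 (NRP + SCS 2 h) and 14.4, 6.38 and 11.8 in pigs 31, 33 and 34 (No NRP + HOPE 2 h). All 3 hearts of the 24 h group lay below all 6 hearts stored for 2 h, and the nearest of those, pig 33, stood at 6.38. The group means were 4.99 ± 0.768, 13.5 ± 3.96 and 10.9 ± 4.08 TPM (SD, n = 3 each). Against NRP + SCS 2 h the log2 fold change was −1.24 (SE 0.35, 95% CI −1.99 to −0.49), with an unadjusted p = 0.00328 and an adjusted p = 0.477. Against No NRP + HOPE 2 h it was −0.93 (95% CI −1.67 to −0.18), with an adjusted p = 0.700. Between the groups with 2 h of storage, NR4A2 differed by −0.31 in No NRP + HOPE 2 h (95% CI −1.06 to 0.44). With each heart in turn left out, this difference ranged from −0.56 to −0.0037. The moderated F test over the 3 groups gave an adjusted p = 0.497.

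The NR4A2 difference from NRP + SCS 2 h kept its direction and an unadjusted p under 0.05 in all 19 alternative analyses, with log2 fold changes from −1.49 to −1.08 and a lowest adjusted p = 0.161. It was −1.32 once the mitochondrially encoded genes were left out. The difference from No NRP + HOPE 2 h also kept its direction, with log2 fold changes from −1.23 to −0.61, but an unadjusted p under 0.05 in 14 of 19 alternative analyses. It lost that level after quantile normalization, with array weights (−0.61), and without pig 28 (−0.89), pig 31 (−0.71) or pig 34 (−0.84). The summed levels of all 10 cell type marker lists overlapped between the 24 h hearts and the SCS hearts. Against No NRP + HOPE 2 h, the smooth muscle and pericyte markers were lower in NRP + HOPE 24 h without overlap (196 to 317 against 393 to 439 TPM). The neutrophil markers were higher without overlap (0.357 to 3.89 against at most 0.343 TPM), with MPO and CSF3R listed at 0 throughout. The part of these cells in the NR4A2 difference was not tested. The retinoid X receptors RXRB and RXRG, with which NR4A2 can form heterodimers, showed no such separation, and 0 of these 2 genes had an unadjusted limma p under 0.05. RXRA, also on that list, had no row under its symbol and was not analysed here. RXRB averaged 8.61 ± 2.76, 10.5 ± 1.77 and 9.34 ± 1.35 TPM, and RXRG 8.78 ± 1.80, 9.09 ± 2.93 and 13.8 ± 5.88 TPM (SD, n = 3, Groups 1, 2 and 3).

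The paralogue NR4A3 overlapped between the groups. NR4A3 was at 34.7, 65.0 and 41.9 TPM in NRP + HOPE 24 h (pigs 27, 28 and 30), at 38.4, 64.0 and 95.7 TPM in NRP + SCS 2 h (pigs 24, 25 and 29), and at 35.7, 36.5 and 76.3 TPM in No NRP + HOPE 2 h (pigs 31, 33 and 34). The log2 fold change was −0.43 (SE 0.39, adjusted p = 0.993) for NRP + HOPE 24 h relative to NRP + SCS 2 h, and its interval, −1.28 to 0.41, includes the value of NR4A2. For NR4A3 it was −0.12 without pig 29 and −0.77 without pig 24. The NR4A3 spread within groups was larger than that of 78.9% of tested genes, against 50.4% for NR4A2. As a share of NR4A3, NR4A2 was 7.15% to 16.9% in NRP + HOPE 24 h and 14.0% to 42.4% in NRP + SCS 2 h, and these ranges overlapped.

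**Figure D2:**
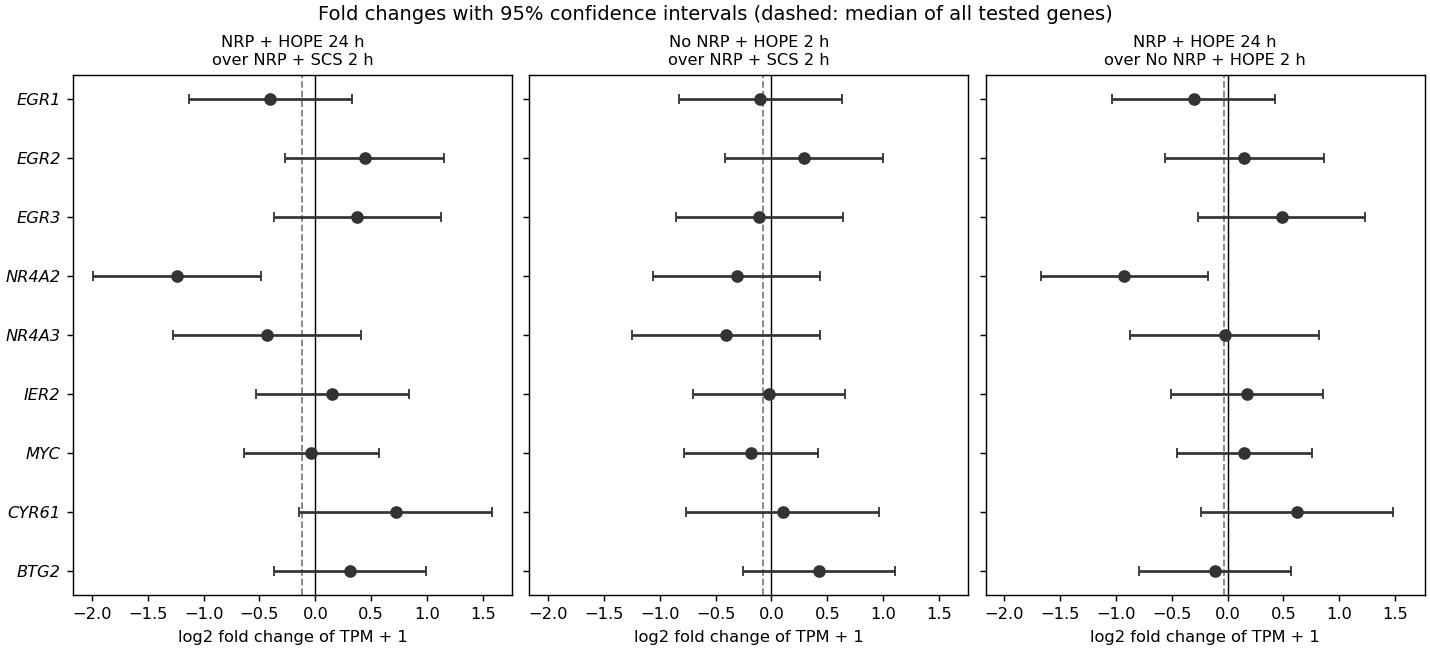
Log2 fold change of TPM + 1 for each member in the 3 comparisons, with 95% confidence intervals from limma. The solid line marks 0 and the dashed line the median of all tested genes (−0.12, −0.07 and −0.03). NR4A2 is the only member whose interval leaves 0, in the left and right panels.

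Among the EGR genes, the group means of EGR1 and of its minor relatives were ordered in opposite ways when the 24 h hearts were set against the SCS hearts, though none of these differences passed the test. EGR1 was at 184, 119.9 and 156 TPM in NRP + HOPE 24 h (pigs 27, 28 and 30), at 230.4, 191 and 181 TPM in NRP + SCS 2 h (pigs 24, 25 and 29), and at 134, 142 and 340.3 TPM in No NRP + HOPE 2 h (pigs 31, 33 and 34). Pig 27 reached the range of the SCS hearts, so the groups overlapped, and pig 34 had the highest EGR1 of all. The log2 fold change of EGR1 was −0.40 (SE 0.34, adjusted p = 0.993) for NRP + HOPE 24 h relative to NRP + SCS 2 h. It was −0.24 without pig 28 and −0.54 without pig 27. For No NRP + HOPE 2 h relative to NRP + SCS 2 h it was −0.10, and without pig 34 it was −0.53.

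EGR2, by contrast, was at 14.0, 14.5 and 14.3 TPM in NRP + HOPE 24 h, above the 11.9, 10.3 and 8.81 TPM of NRP + SCS 2 h. The hearts of No NRP + HOPE 2 h covered both ranges, with 8.05, 12.4 and 20.5 TPM in pigs 31, 33 and 34. The 24 h hearts were nearly alike in EGR2 (14.3 ± 0.253 TPM, SD, n = 3), the smallest relative spread of any member in any group. Their log2 fold change relative to NRP + SCS 2 h was 0.44 (SE 0.33, 95% CI −0.27 to 1.15, adjusted p = 0.993), so the absence of overlap did not pass the model, which takes its error from all 9 hearts.

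EGR3 was at 4.77, 4.95 and 8.43 TPM after 24 h of HOPE and at 4.46, 4.10 and 4.33 TPM after SCS, again without overlap but with a gap between pigs 27 and 24 of well under 1 TPM. The No NRP + HOPE 2 h hearts had 2.33, 3.92 and 6.21 TPM. The log2 fold change of EGR3 for NRP + HOPE 24 h relative to NRP + SCS 2 h was 0.37 (SE 0.35), and 0.15 without pig 30. In this comparison 3 of 9 members did not overlap between the groups, EGR2 and EGR3 upward and NR4A2 downward, against 9.82% of all tested genes (2.5% upward and 7.32% downward). In No NRP + HOPE 2 h relative to NRP + SCS 2 h it was 0 of 9 members, where 14.7% of all genes did not overlap. In NRP + HOPE 24 h relative to No NRP + HOPE 2 h it was NR4A2 alone, against 7.48% of all genes.

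Ratios between relatives within a heart do not depend on how the heart was scaled, and these ratios were chosen after the values had been seen. EGR2 stood at 7.62%, 12.1% and 9.16% of EGR1 in the NRP + HOPE 24 h hearts (pigs 27, 28 and 30). In the NRP + SCS 2 h hearts it stood at 5.15%, 5.37% and 4.87%, and in the No NRP + HOPE 2 h hearts at 6.03%, 8.73% and 6.03%. Both HOPE groups were therefore above the SCS group in every heart, by 1.84-fold after 24 h and by 1.33-fold after 2 h without NRP (geometric means). The exact permutation p was 0.1 two-sided in both comparisons, the smallest that 3 hearts against 3 allow. Any ratio without overlap gives this p, so it restates the separation and adds no evidence of its own. Of 10993 genes, 4.48% and 3.67% had a ratio to EGR1 that was higher without overlap in the same comparisons.

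EGR3 was likewise a larger share of EGR1 after 24 h of HOPE, at 2.60% to 5.40% against 1.94% to 2.40% in NRP + SCS 2 h, 1.80-fold in geometric mean (exact permutation p = 0.1, two-sided). In No NRP + HOPE 2 h that share was 1.74% to 2.77% and overlapped with both other groups. EGR3 relative to EGR2 was lowest in No NRP + HOPE 2 h, at 28.9% to 31.7%, below the 34.1% to 59.0% of NRP + HOPE 24 h and the 37.6% to 49.2% of NRP + SCS 2 h. Ratios to EGR2 that were lower without overlap in No NRP + HOPE 2 h than in NRP + SCS 2 h were common, at 23.7% of genes, whereas 1.36% of genes had a ratio to EGR2 that was higher without overlap in NRP + HOPE 24 h than in No NRP + HOPE 2 h.

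**Figure D3:**
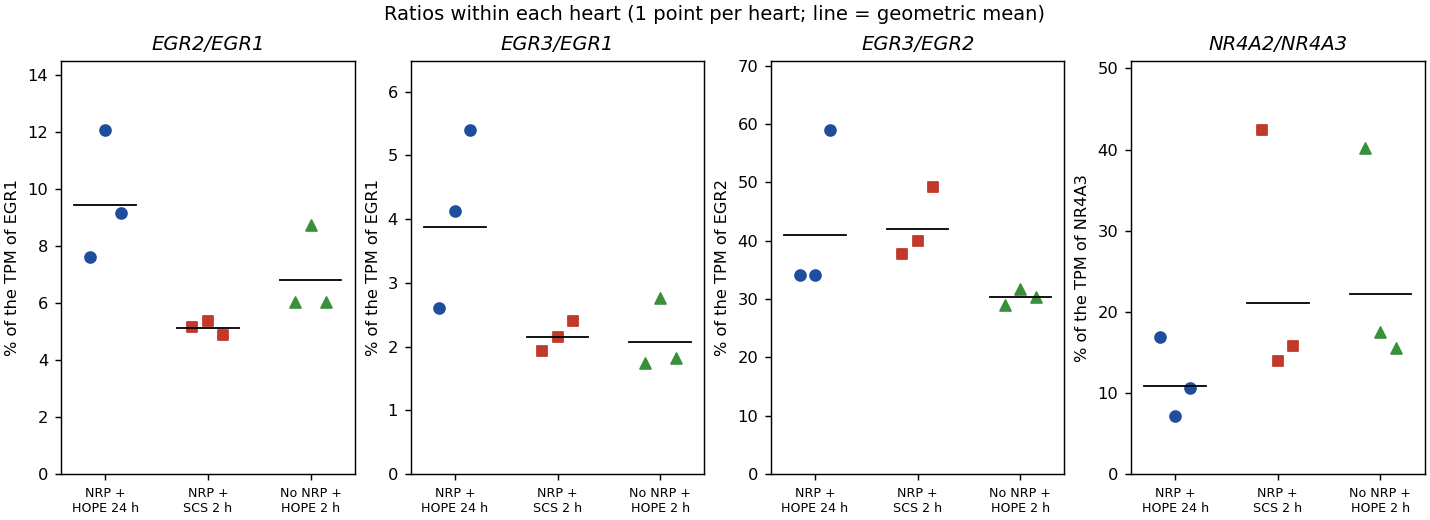
Ratio of related members within each heart, as a percentage of the TPM of the second gene, with 1 point per heart and a line at the geometric mean of each group. EGR2 relative to EGR1 is 4.87% to 5.37% in NRP + SCS 2 h and 6.03% or more in every heart of the HOPE groups, while NR4A2 relative to NR4A3 overlaps between all groups.

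The EGR co-repressor NAB1, which binds EGR1 and limits its activity, averaged 18.0 ± 7.08, 13.8 ± 2.55 and 13.2 ± 2.90 TPM in Groups 1, 2 and 3 (SD, n = 3). WT1, a zinc finger factor with a related binding site, averaged 3.47 ± 0.579, 3.46 ± 0.900 and 6.47 ± 4.36 TPM. Neither reached an unadjusted limma p under 0.05 in any comparison. NAB2, the other co-repressor and itself an EGR1 target, did not exceed 0.157 TPM in any heart and was not tested.

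MYC had the second highest level of the members and varied least of them between hearts. Its TPM was 203, 289 and 273 in NRP + HOPE 24 h (pigs 27, 28 and 30), 282, 312 and 196 in NRP + SCS 2 h (pigs 24, 25 and 29), and 174, 293 and 229.9 in No NRP + HOPE 2 h (pigs 31, 33 and 34). The ranges of the 3 groups overlapped almost entirely. The log2 fold change of MYC was −0.03 (95% CI −0.64 to 0.57) for NRP + HOPE 24 h relative to NRP + SCS 2 h and −0.18 (95% CI −0.79 to 0.42, adjusted p = 0.931) for No NRP + HOPE 2 h relative to NRP + SCS 2 h. The MYC spread within groups was larger than that of 27.7% of tested genes.

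Genes of ribosome biogenesis that MYC is known to activate had larger negative log2 fold changes than MYC in No NRP + HOPE 2 h, without passing the test. Of 18 MYC targets written down by name, 16 were listed and 12 were tested. The list was chosen with earlier results of these data known, so its counts beside those of all genes are not an independent test. The list also held CAD, CDK4 and ODC1, which act in nucleotide synthesis, the cell cycle and polyamine synthesis, but these were below the filter. In No NRP + HOPE 2 h relative to NRP + SCS 2 h, all 12 had negative log2 fold changes, from −1.19 to −0.58 with a median of −0.71, while the median of all tested genes was −0.07 and that of MYC itself was −0.18. None was called, the smallest adjusted p in limma being 0.414. At an unadjusted p under 0.05, limma gave 10 of 12, against 4.65% of all genes in that direction, and 10 of 12 did not overlap between the groups, against 10.3% of all genes.

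WDR12, which acts in maturation of the large ribosomal subunit, had the largest difference of these. It was at 6.52, 4.99 and 3.28 TPM in No NRP + HOPE 2 h (pigs 31, 33 and 34), below the 15.2, 10.4 and 11.5 TPM of NRP + SCS 2 h and the 7.40, 13.7 and 15.3 TPM of NRP + HOPE 24 h. Its log2 fold change relative to NRP + SCS 2 h was −1.19 (adjusted p = 0.414). NOP58, a core protein of the box C/D snoRNPs, was at 58.0, 83.3 and 55.9 TPM against 111, 96.6 and 116 TPM, a log2 fold change of −0.73 (adjusted p = 0.565). NOLC1, a nucleolar chaperone of snoRNPs, averaged 38.9 ± 12.6 against 63.2 ± 9.17 TPM, and POLR1B, a subunit of RNA polymerase I, 7.14 ± 1.25 against 12.3 ± 0.741 TPM (SD, n = 3).

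The count of 10 depended on single hearts. It was between 1 and 12 when each heart in turn was left out, with 1 each without pig 24 and without pig 34, 2 without pig 31, 5 without pig 25 and 6 without pig 29. The median kept its sign each time, between −0.92 and −0.60, and all 12 genes stayed below 0. With array weights the count was 4 and the median −0.46. Fibroblast markers (1020 to 1150 against 669 to 982 TPM) and erythroid markers (222 to 373 against 71.4 to 133 TPM) were higher in No NRP + HOPE 2 h without overlap. Neutrophil markers (at most 0.343 against at least 2.02 TPM) were lower. So was the skeletal muscle list (2504 to 4898 against 4914 to 5520 TPM), but its sum was that of ACTA1, a sarcomeric actin that cardiomyocytes also express, since MYH2 was listed at 0 in all 9 hearts. Their part in the difference of the MYC targets was not tested.

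In NRP + HOPE 24 h relative to NRP + SCS 2 h the same 12 genes had a median of −0.17, near the −0.12 of all genes. Of the 12, 0 had an unadjusted limma p under 0.05, against 4.97% of all genes. All 12 were below 0 as deposited, but 8 of 12 after median-of-ratios scaling or with array weights, and 6 of 12 without pig 27, where the median was −0.0051. In NRP + HOPE 24 h relative to No NRP + HOPE 2 h the median was 0.48. WDR12 alone had an unadjusted limma p under 0.05 (log2 fold change 1.13, adjusted p = 0.466), against 6.01% of all genes. MAX, the dimerization partner of MYC, had no row under its symbol. Genes of the wider network, which bind MAX or its relative MLX (MXD1, MXD3, MXD4, MXI1 and MGA, with MLX itself and MLXIP), gave 0 calls among 7 tested. At an unadjusted limma p under 0.05 they gave 0, 0 and 1 in the 3 comparisons, against 4.97%, 7.22% and 6.01% of all genes. The 1 was MXD4, a MAX-binding repressor that averaged 6.81 ± 3.82 TPM in NRP + HOPE 24 h against 13.2 ± 1.66 TPM in No NRP + HOPE 2 h, a log2 fold change of −0.96 (adjusted p = 0.671).

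**Figure D4:**
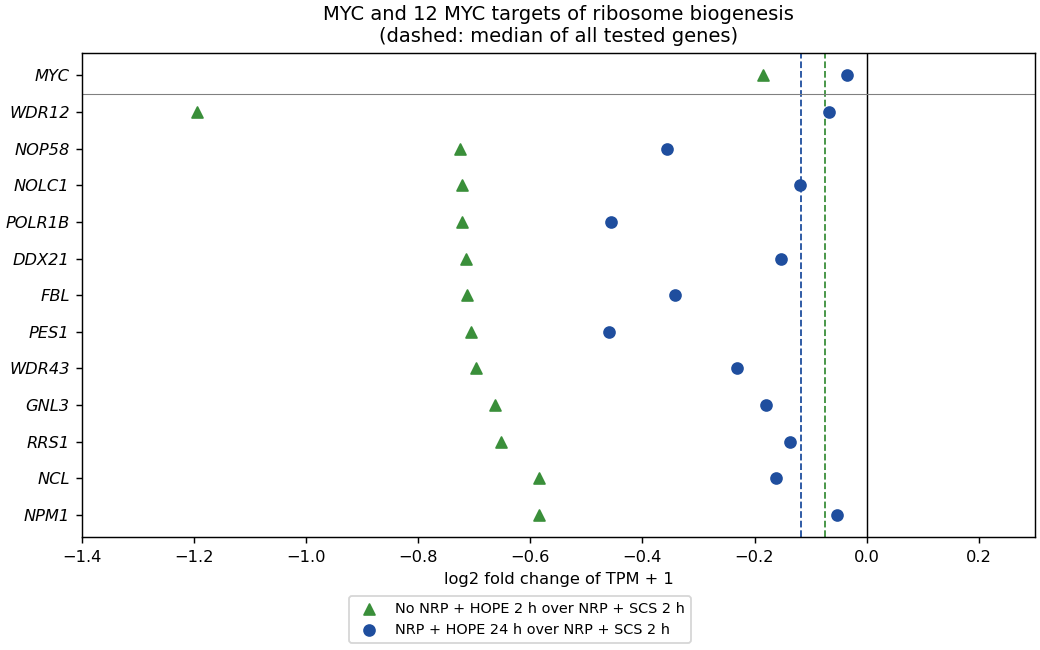
Log2 fold change of TPM + 1 for MYC (top row) and 12 MYC targets of ribosome biogenesis, each group of hearts against NRP + SCS 2 h. Dashed lines are the medians of all tested genes in the same colors. Triangles, No NRP + HOPE 2 h, lie between −1.19 and −0.58 for the targets and at −0.18 for MYC, and circles, NRP + HOPE 24 h, lie between −0.46 and −0.05 for the targets.

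CYR61 had the largest positive difference of the members after 24 h of HOPE and the widest spread. Its TPM was 375, 799 and 768 in NRP + HOPE 24 h (pigs 27, 28 and 30), 602, 439 and 193 in NRP + SCS 2 h (pigs 24, 25 and 29), and 327, 533 and 362 in No NRP + HOPE 2 h (pigs 31, 33 and 34). Pigs 28 and 30 were above every other heart, but pig 27 was below 2 of the SCS hearts, so the groups overlapped. The log2 fold change relative to NRP + SCS 2 h was 0.72 (SE 0.40, 95% CI −0.14 to 1.58, adjusted p = 0.993). It was 0.25 without pig 29 and 1.08 without pig 27. For No NRP + HOPE 2 h relative to NRP + SCS 2 h the value was 0.10, and it turned to −0.37 without pig 29.

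Other CCN genes, YAP targets, TEAD factors and WWTR1 (TAZ) gave 0 calls among 8 tested in each comparison. They gave 0, 1 and 1 at an unadjusted limma p under 0.05, against 4.97%, 7.22% and 6.01% of all genes. ANKRD1 was the gene both times. CTGF (CCN2), a secreted relative of CYR61, averaged 95.6 ± 79.7 TPM after 24 h of HOPE and 57.0 ± 20.6 TPM after SCS (SD, n = 3, log2 fold change 0.41). ANKRD1, a YAP target and a stretch-responsive protein of the cardiomyocyte sarcomere, was ordered differently from CYR61. It was at 1589, 2285 and 3069.9 TPM in No NRP + HOPE 2 h (pigs 31, 33 and 34), below the 5009, 4632 and 3790.1 TPM of NRP + SCS 2 h (pigs 24, 25 and 29). Its log2 fold change was −0.99 (adjusted p = 0.414). The NRP + HOPE 24 h hearts, at 2557, 4665 and 4631 TPM, overlapped with both.

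IER2 and BTG2 did not separate the groups. IER2 was at 79.2, 61.8 and 88.7 TPM in NRP + HOPE 24 h, at 88.0, 75.2 and 47.4 TPM in NRP + SCS 2 h, and at 51.4, 61.6 and 94.6 TPM in No NRP + HOPE 2 h. Its log2 fold changes relative to NRP + SCS 2 h were 0.15 and −0.02, with intervals of −0.53 to 0.84 and −0.70 to 0.66. BTG2 was at 199, 209 and 126 TPM in NRP + HOPE 24 h, at 138, 164 and 120.1 TPM in NRP + SCS 2 h, and at 143, 156 and 296 TPM in No NRP + HOPE 2 h. The BTG2 log2 fold change for No NRP + HOPE 2 h relative to NRP + SCS 2 h was 0.42 (95% CI −0.25 to 1.10), the largest of the members in that comparison, and 0.10 without pig 34. Of the CCR4-NOT deadenylase with which BTG2 acts, 5 subunits were tested, 0 were called, and 0 had an unadjusted limma p under 0.05. The BTG and TOB relatives on the list had no row and were not analysed here. CNOT1, the scaffold of that complex, averaged 12.2 ± 3.40 TPM in No NRP + HOPE 2 h against 17.3 ± 1.47 TPM in NRP + SCS 2 h (SD, n = 3).

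IER3, which shares the immediate early response with IER2 but is an unrelated anti-apoptotic protein, separated the 24 h hearts without overlap. It was at 360.3, 709.8 and 596 TPM in NRP + HOPE 24 h (pigs 27, 28 and 30), above the 181, 236 and 151 TPM of NRP + SCS 2 h and the 136, 209.8 and 139 TPM of No NRP + HOPE 2 h. Its log2 fold changes were 1.52 (adjusted p = 0.138) and 1.75 (adjusted p = 0.0815), neither of which passed. IER5 and IER5L, the other tested genes of the IER list, overlapped between all groups.

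Of 36 other immediate early genes written down by name, 17 were listed and 16 were tested, with 0 calls in any comparison. At an unadjusted limma p under 0.05 there were 2, 1 and 2 genes (HBEGF and PLK2, GADD45B, and HBEGF and PLK2). The shares of all genes at that level were 4.97%, 7.22% and 6.01%. The median log2 fold changes of the 16 genes were 0.17, 0.09 and 0.03 in the 3 comparisons, against −0.12, −0.07 and −0.03 for all genes. HBEGF, a membrane-bound growth factor of the EGF family, was at 53.3, 161 and 140.8 TPM in NRP + HOPE 24 h, above the 38.0, 47.0 and 33.0 TPM of NRP + SCS 2 h and the 32.6, 47.9 and 31.0 TPM of No NRP + HOPE 2 h. Its log2 fold change relative to NRP + SCS 2 h was 1.43 (adjusted p = 0.419). PLK2, a stress-induced kinase, was at 67.1, 56.2 and 108 TPM in NRP + HOPE 24 h, above the 53.6, 34.2 and 23.5 TPM of NRP + SCS 2 h, a log2 fold change of 1.06 (adjusted p = 0.767). GADD45B, a stress sensor upstream of p38 and JNK, was at 496, 585 and 699 TPM in No NRP + HOPE 2 h (pigs 31, 33 and 34), above the 416, 349.5 and 306 TPM of NRP + SCS 2 h (log2 fold change 0.73, adjusted p = 0.484). CSRNP1, a nuclear protein of the same list, was at 65.1, 74.8 and 84.4 TPM in NRP + HOPE 24 h, below the 118, 111 and 107 TPM of NRP + SCS 2 h (log2 fold change −0.59, adjusted p = 0.993). The No NRP + HOPE 2 h hearts overlapped with both ranges (67.7 to 128 TPM). Against SCS, 3 of the 16 genes of this list were higher without overlap in the 24 h hearts (HBEGF, PLK2 and ZFP36L1) and 1 was lower (CSRNP1), where 2.5% of all genes were higher and 7.32% lower.

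Of 19 symbols written down for regulators upstream of immediate early genes, where MRTFA and MRTFB were each written under a pair of names, 13 were listed and tested (among them SRF, ternary complex factors, MKL1, CREM, ATF1, CRTC1, CRTC2 and RSK or MSK kinases). CREB1 had no row. Of the 13, 0 were called, and 0, 2 and 0 had an unadjusted limma p under 0.05, against 4.97%, 7.22% and 6.01% of all genes. In No NRP + HOPE 2 h relative to NRP + SCS 2 h, 2 were higher and 2 lower without overlap, where 14.7% of all genes did not overlap. SRF averaged 32.8 ± 15.9 TPM after 24 h of HOPE and 37.5 ± 11.7 TPM after SCS (SD, n = 3). CREM, a cAMP-responsive factor whose short isoforms repress CREB targets, was at 38.3, 43.7 and 53.5 TPM in No NRP + HOPE 2 h, above the 20.0, 25.5 and 27.0 TPM of NRP + SCS 2 h (log2 fold change 0.87, adjusted p = 0.516). RPS6KA3 (RSK2), an ERK-activated kinase that phosphorylates SRF and CREB, averaged 14.1 ± 4.59 against 23.1 ± 3.62 TPM in these groups (log2 fold change −0.71, adjusted p = 0.687).

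Taking the members as a group, 5 of 9 had log2 fold changes above 0 in NRP + HOPE 24 h relative to NRP + SCS 2 h, where 35.9% of all genes did, and the member median was 0.15 against −0.12 for all genes. In No NRP + HOPE 2 h relative to NRP + SCS 2 h, 3 of 9 were above 0 (all genes 42.2%), with medians of −0.10 and −0.07. In NRP + HOPE 24 h relative to No NRP + HOPE 2 h, 5 of 9 were above 0 (all genes 46.1%), with medians of 0.15 and −0.03. The sign of the member median rested on single hearts in each comparison. It turned to −0.10 without pig 29 in the first, to 0.17 without pig 31 and 0.0022 without pig 24 in the second, and to −0.15 without pig 31 in the third. The SE of a member's log2 fold change ranged from 0.28 to 0.40, and the 95% intervals reached from −1.99 to 1.58 over the members in NRP + HOPE 24 h relative to NRP + SCS 2 h, so that upward differences of over 2-fold lay within the intervals of CYR61, EGR2 and EGR3.

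Single hearts of a group also differed over many members. Pig 34 of No NRP + HOPE 2 h had the highest level of 4 members (EGR1, EGR2, IER2 and BTG2), and 7 of 9 members lay above their mean over the 9 hearts. Pig 31 of the same group had the lowest level of 3 members and 1 of 9 above its mean, which was NR4A2. Pig 29 of NRP + SCS 2 h had the lowest IER2, CYR61 and BTG2 and the highest NR4A3. The median deviation of the members from their means, on the log2(TPM + 1) scale, was 0.43 in pig 34, −0.46 in pig 31 and −0.32 in pig 29. The mitochondrially encoded share was 44.8% in pig 34, 55.0% in pig 31 and 52.7% in pig 29, and several summed marker lists had their extremes over the 9 hearts in these pigs. Macrophage (218 TPM) and T and NK cell markers (26.9 TPM) were highest and neutrophil markers lowest in pig 34. Endothelial markers (216 TPM) and ACTA1 (2504 TPM) were lowest and fibroblast markers (1150 TPM) highest in pig 31, and B cell markers were highest in pig 29 (1.11 TPM). The part of any of these in the deviations was not tested.

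**Figure D5:**
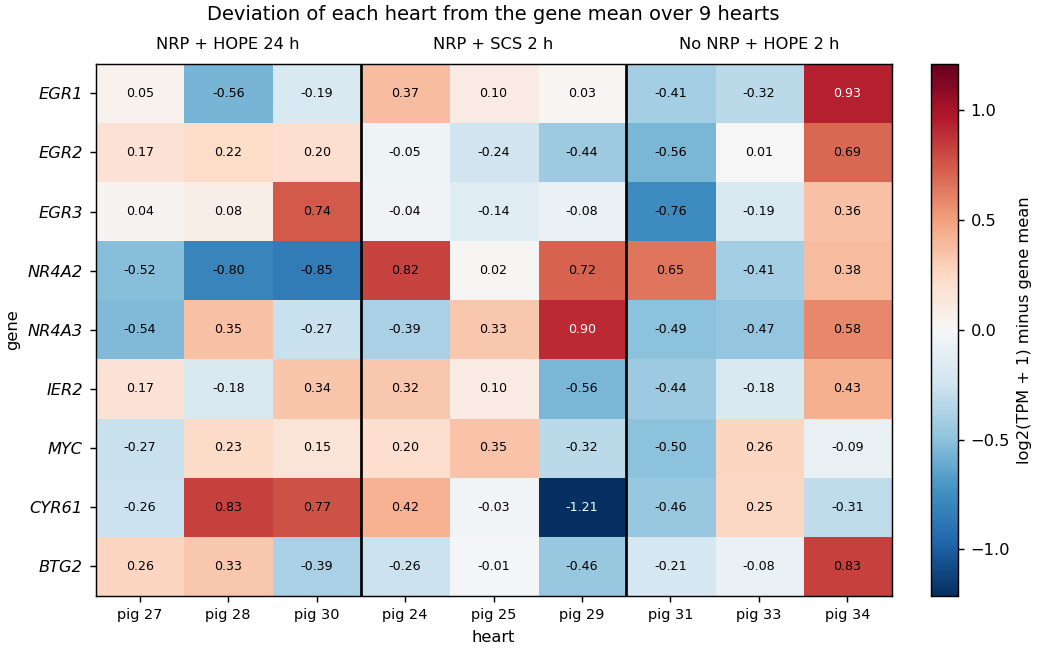
Deviation of log2(TPM + 1) from the mean of each gene over the 9 hearts, with genes in rows and hearts in columns, ordered by group. Red is above and blue below the mean of the gene. The NR4A2 row is negative in all 3 NRP + HOPE 24 h hearts, and pig 34 is positive in 7 of 9 rows.

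Across the 9 hearts, 36 pairs of members were compared by exact permutation tests of Pearson's r on log2(TPM + 1). The r was positive in 26 pairs with a median of 0.27, and the median was 0.14 once the mitochondrially encoded genes were left out. The unadjusted p was under 0.05 in 5 pairs and the adjusted p in 0. The highest r joined EGR2 and BTG2 (r = 0.76, exact permutation p = 0.0178, Spearman's rho = 0.62 with p = 0.0857), MYC and CYR61 (r = 0.74, exact permutation p = 0.0222, rho = 0.68 with p = 0.0503), and EGR2 and IER2 (r = 0.74, exact permutation p = 0.0224, rho = 0.70 with p = 0.0433). Without the 2 hearts farthest from the median of the former gene, these r were 0.54, 0.58 and 0.54. EGR2 and EGR3 had r = 0.73 and rho = 0.83 (exact permutation p = 0.0280 and 0.00827), and r = 0.53 without pigs 31 and 34. The adjusted exact permutation p was 0.252 for each of these 4 values of r. EGR1 and EGR2 had r = 0.48 (exact permutation p = 0.193), and NR4A2 and NR4A3 had r = 0.23 (exact permutation p = 0.542). These r also hold the differences between groups. For deviations from the group means, described without a test, they were 0.84 and −0.022. The median over the 36 pairs was then 0.28.

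The genes most like a member over the 9 hearts were taken from 7936 other tested genes with a symbol, as a description with no test. Nearest to EGR1 were ZBTB16 (r = 0.95), a zinc finger repressor, and CHD2 (r = 0.93), a chromatin remodeler, followed by RUNX1T1, PTPRR and ACACB (r from 0.89 to 0.91). Among the genes nearest to MYC were KLF7, the matrix glycoprotein THBS1 (r = 0.94 each), IGSF9B and the lymphatic growth factor VEGFC (r = 0.94 each). THBS1 ranged from 546 to 1083 TPM, so it was more abundant than MYC in the same hearts. Nearest to CYR61 were ZC3H12C (r = 0.95), the ERK pathway kinase MAP2K1 (r = 0.95), the row labelled ssc-mir-378-1, ZNF671 and the MAP kinase phosphatase DUSP10 (r = 0.91). Some of these genes were near the floor: PTPRR ranged from 0.207 to 2.38 TPM, IGSF9B from 0.752 to 3.17, and ZC3H12C from 0.580 to 3.53. ZNF671 ranged from 0.443 to 3.03 TPM and ssc-mir-378-1 from 0 to 9.87. All were picked as the highest of 7936 values over 9 hearts, so their r is high by selection. No member was among the genes compared.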

How the data were processed

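RNA was sequenced by the study from 1 apex biopsy in each of 9 hearts. According to the methods and the submitters' processing notes, reads were trimmed (Trimmomatic 0.36), aligned to the pig genome (STAR 2.5.2b) and counted per gene (featureCounts, Subread 1.5.2). The genome build is not given in the sources used here, so no coordinates or sequences are printed. The authors deposited TPM values, 1 column per heart, over 25149 genes, 12006 of them without a symbol. Hearts were assigned by the pig number in labels and column names, and 9 columns that match no sample of the study were not used.

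From these values, log2(TPM + 1) was fitted with limma 3.58.1 in R 4.3.3, all 9 hearts together, each group having its own mean, and with variances moderated along a trend. The authors used DESeq2 on counts, which TPM do not allow. The 11782 genes that reached 1 TPM in 3 or more hearts entered the two-sided test, and p-values were adjusted over all of them (Benjamini-Hochberg). The fit was tested on simulated data. Single values were compared by exact permutation over hearts (Python 3.11.15, numpy 2.4.6, pandas 2.3.3, scipy 1.17.1), and figures were drawn with matplotlib 3.10.9. The 9 gene lists and the 10 marker lists were written from general knowledge, and the members and lists were chosen with earlier results of these data known. Every member is named. From each list, up to 4 genes with the largest absolute log2 fold change per comparison could be named, and for EGR1, MYC and CYR61 the 5 genes with the highest r, of which 1 is not reported here. NAB2, CAD, CDK4 and ODC1 were named after their values were seen. Alternatives changed the pseudocount to 0.1, dropped the filter or replaced it by a mean of 5 TPM, rescaled by median of ratios or by quantiles, removed the 13 mitochondrially encoded genes, restricted the fit to the 6 hearts of a comparison, and varied eBayes (no trend, or robust) or the array weights (statmod 1.5.0). Each heart was also left out in turn. The alternatives for the MYC targets were added after seeing the data. A planned search of promoters for motifs was not made, because no promoter sequences were given.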

Additional observations from a re-analysis of the deposited data

How the results depend on the processing

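The count of members past the adjusted threshold was 0 in every comparison and alternative. The count at an unadjusted limma p under 0.05 in NRP + HOPE 24 h relative to NRP + SCS 2 h was 1, but 4 after median-of-ratios scaling and 2 after quantile normalization, and 1 to 2 with a heart left out. In NRP + HOPE 24 h relative to No NRP + HOPE 2 h it was 1, but 0 with array weights and 2 after median-of-ratios scaling, and 0 to 2 with a heart left out. For MYC targets in No NRP + HOPE 2 h relative to NRP + SCS 2 h it was 10, but 4 with array weights, and 1 to 12 with a heart left out. The cause was not tested. The medians over the members moved by less than the spread between hearts in all alternatives, but their sign turned in some. For 24 h over SCS the median was −0.012 with array weights and −0.10 to 0.30 with a heart left out, for No NRP over SCS 0.00051 after median-of-ratios scaling and −0.27 to 0.17, and for 24 h over No NRP −0.15 to 0.33.

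Single members kept their direction in 87 of 89, 86 of 89 and 86 of 89 values of the other alternatives. Median-of-ratios scaling turned MYC to 0.11 (24 h over SCS), EGR1 to 0.00051 and IER2 to 0.078 (No NRP over SCS), and NR4A3 to 0.021 (24 h over No NRP). Quantile normalization turned IER2 to 0.071 (No NRP over SCS). Array weights turned IER2 to −0.054 (24 h over SCS), and NR4A3 to 0.40 and BTG2 to 0.18 (24 h over No NRP). The median of all genes in NRP + HOPE 24 h relative to NRP + SCS 2 h moved from −0.12 to 0.00030 with median-of-ratios scaling.

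With a heart left out, 4, 12 and 9 of 81 values turned. The lowest and highest were −0.10 and 0.34 for IER2 and −0.23 and 0.12 for MYC (24 h over SCS). For No NRP over SCS they were −0.53 and 0.14 for EGR1, −0.030 and 0.59 for EGR2, −0.39 and 0.17 for EGR3, −0.28 and 0.17 for IER2, −0.38 and 0.0076 for MYC, and −0.37 and 0.45 for CYR61. For 24 h over No NRP they were −0.54 and 0.13 for EGR1, −0.15 and 0.47 for EGR2, −0.28 and 0.33 for NR4A3, −0.012 and 0.42 for IER2, −0.042 and 0.33 for MYC, and −0.31 and 0.21 for BTG2. EGR3 dropped out at a mean TPM of at least 5. No paired analysis was possible because each pig belongs to 1 group and the groups share no pig numbers. The depth behind the TPM is unknown, and with 3 hearts per group neither an absence of change nor a small change can be shown.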
